A study of Homo sapiens with 6 samples.

Results

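The genes described here act in mitosis: the kinase CDK1 and its cyclins, the Polo and Aurora kinases, the spindle checkpoint, the centromere and kinetochore, mitotic kinesins, spindle proteins and the factors of cytokinesis. They were chosen by name, as a list of 36 genes out of the 62700 genes counted, and each was found once by its symbol. All 36 passed the filter on low counts.

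Per the labels, the RNA came from MKN-45, an established line from a human gastric adenocarcinoma. There were 3 cultures labelled NNMT knockdown and 3 control cultures, which the labels call independent biological replicates. NNMT encodes nicotinamide N-methyltransferase, an enzyme that methylates nicotinamide. Harvest was 48 h after transfection in both groups, and one label field names an siRNA against NNMT or a non-targeting siRNA given with Lipofectamine RNAiMAX. Other fields name an NNMT shRNA and a negative-control shRNA. The design text calls the controls untouched. Replicates 1, 2 and 3 labelled NNMT knockdown held 2, 8 and 14 NNMT reads, against 0, 8 and 12 in control replicates 1, 2 and 3, so the targeted RNA was near the detection limit in both groups and was not measurably lower in the labelled group (log2 fold change 0.48, SE 0.929, adjusted p = 0.999, edgeR's quasi-likelihood test). For that reason the wording "labelled NNMT knockdown" or "knockdown-labelled" is kept. Library totals were 40558680 to 45405621 reads in the knockdown-labelled libraries and 41591436 to 56067484 in control. The 8 epithelial markers summed to 1670 to 2020 CPM in the knockdown-labelled libraries and 1650 to 1750 CPM in control. Here CPM is the read count scaled to a library of 1e+06 reads after TMM normalization. KRT19 (883 to 1290 CPM) and CLDN4 (333 to 439 CPM) were the highest. CDH1 (29.3 to 45.4 CPM), EPCAM (17.6 to 40 CPM), CLDN7 (4.4 to 9.55 CPM) and CDH3 (2.83 to 5.71 CPM) were far lower. The 8 gastric markers summed to 43.4 to 101 CPM in the knockdown-labelled libraries and 37.5 to 100 CPM in control. Of these, MUC6 (26 to 82.9 CPM), MUC5AC (3.75 to 41.8 CPM) and TFF1 (1.66 to 8.24 CPM) were present in every library, while 4 were under 1 CPM in all 6, among them GKN1 with 0 reads. The 5 intestinal markers were all under 1 CPM, with CDX1 and CDX2 at 0 reads. The 5 mesenchymal markers summed to 2600 to 4330 CPM in the knockdown-labelled libraries and 3280 to 3570 CPM in control. FN1 (1250 to 3150 CPM) and VIM (689 to 1010 CPM) were the highest of the mesenchymal markers. Whether the cells are the named line was not tested.

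CDK1 bound to cyclin A and B drives cells into mitosis, and Polo-like and Aurora kinases then build the spindle and correct its attachments. Kinetochores on the centromeres hold the spindle microtubules, and the checkpoint restrains CDC20 and the anaphase-promoting complex until every chromosome is attached. Most of these genes are transcribed in G2 and M phase and are repressed in resting cells by the DREAM complex, through a promoter element called the cell cycle genes homology region, or CHR, which often lies beside CCAAT boxes. In cell lines and tumours their RNA is widely read as a sign of proliferation.

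The promoters are shown because this shared element is what the genes are known to have in common besides their timing. RefSeq promoter windows (GRCh38.p14), from 250 bases before to 50 bases after the gene start, matched 31 of the 36 genes. AURKA, TTK, TPX2, BIRC5 and UBE2C had no entry. The windows were searched on both strands for the CHR, as TTTGAA or TTCGAA, and for CCAAT. A CHR was present in 25 of 31 windows (80.6%), against 16.6% of all 27305 windows, and at least 1 CCAAT in 25 of 31 (80.6%), against 35.7%. Both were present in 21 of 31 (67.7%), against 6.58% of all windows. The CHR began within 60 bases of the start, a distance chosen after the matches were seen, in 21 of 31 windows, against 5.46% of all windows. Neither motif was found in CENPE or KIF2C. The 6 windows below are those of the first genes of the list that held both motifs, printed in the direction of transcription, with CHR and CCAAT matches on either strand in capitals.
CDK1 (chr10:60778081-60778380, plus strand): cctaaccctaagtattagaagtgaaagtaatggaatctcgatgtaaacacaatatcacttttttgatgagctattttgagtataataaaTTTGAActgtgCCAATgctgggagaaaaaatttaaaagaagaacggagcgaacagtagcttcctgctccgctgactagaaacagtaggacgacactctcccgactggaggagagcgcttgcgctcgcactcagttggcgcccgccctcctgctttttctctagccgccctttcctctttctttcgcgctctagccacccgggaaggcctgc
CCNB2 (chr15:59104896-59105195, plus strand): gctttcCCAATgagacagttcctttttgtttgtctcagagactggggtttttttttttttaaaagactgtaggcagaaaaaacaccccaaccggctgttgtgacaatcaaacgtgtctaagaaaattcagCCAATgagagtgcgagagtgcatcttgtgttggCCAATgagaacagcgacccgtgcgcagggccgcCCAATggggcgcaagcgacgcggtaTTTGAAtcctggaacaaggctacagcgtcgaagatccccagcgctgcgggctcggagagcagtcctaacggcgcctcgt
PLK1 (chr16:23678639-23678938, plus strand): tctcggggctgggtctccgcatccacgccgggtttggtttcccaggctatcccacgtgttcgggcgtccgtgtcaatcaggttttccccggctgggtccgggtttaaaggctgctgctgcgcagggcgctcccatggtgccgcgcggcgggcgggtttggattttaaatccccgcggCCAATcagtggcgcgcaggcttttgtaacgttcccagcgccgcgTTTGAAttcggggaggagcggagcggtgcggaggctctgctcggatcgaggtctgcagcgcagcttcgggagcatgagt
BUB1 (chr2:110678014-110678313, minus strand): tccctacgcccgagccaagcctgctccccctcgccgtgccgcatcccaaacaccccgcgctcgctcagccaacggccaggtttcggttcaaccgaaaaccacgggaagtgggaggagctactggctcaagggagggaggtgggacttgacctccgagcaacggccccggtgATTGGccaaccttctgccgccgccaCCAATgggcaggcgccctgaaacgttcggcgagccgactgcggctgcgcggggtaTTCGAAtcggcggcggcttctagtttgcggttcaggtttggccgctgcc
MAD2L1 (chr4:120066799-120067098, minus strand): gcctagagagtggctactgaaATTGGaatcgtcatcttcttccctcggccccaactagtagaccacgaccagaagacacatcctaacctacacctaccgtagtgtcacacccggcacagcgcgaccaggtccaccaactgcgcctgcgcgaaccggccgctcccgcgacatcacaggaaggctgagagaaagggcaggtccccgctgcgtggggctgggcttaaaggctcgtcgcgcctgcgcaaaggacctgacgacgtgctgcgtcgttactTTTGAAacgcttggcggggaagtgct
CDC20 (chr1:43358731-43359030, plus strand): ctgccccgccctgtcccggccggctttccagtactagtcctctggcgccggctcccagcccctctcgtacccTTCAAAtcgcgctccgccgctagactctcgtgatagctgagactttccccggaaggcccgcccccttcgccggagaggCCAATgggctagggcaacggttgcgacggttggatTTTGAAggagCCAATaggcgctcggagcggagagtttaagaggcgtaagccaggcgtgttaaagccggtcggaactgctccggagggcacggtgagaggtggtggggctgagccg
The CHR of CCNB2 and PLK1 began at position -29 from the start, and that of BUB1, written TTCGAA, at position 2. CCNB2 held 4 CCAAT boxes, at -244, -120, -87 and -54. CDC20 held CHR matches at -178 and -65 and CCAAT boxes at -100 and -55. In the CDK1 window the CHR lay farther out, at -161, and in MAD2L1 it lay after the start, at 25. CHR and CCAAT matches overlapped each other in CDCA8 and MKI67. These are matches of letters, and binding at them was not measured.

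Per exon length, the genes were well expressed in all libraries. Levels per length are given as RPKM, which is CPM divided by the exon length in kilobases, with the SD over all 6 libraries. The median of the 36 genes was 9.39 RPKM, against 2.42 RPKM over the 20250 genes tested. The highest were UBE2C, the ubiquitin-conjugating enzyme of the anaphase-promoting complex, at 47.4 ± 7.11 RPKM, the spindle assembly factor TPX2 at 40 ± 6.23 RPKM, and BIRC5, or survivin, at 38.1 ± 7.84 RPKM (n = 6 each). TPX2 and BIRC5 differed by less than either SD over libraries, and UBE2C lay above TPX2 by slightly more than either. Then came CDK1 at 30.9 ± 5.35 RPKM, the cytokinesis activator ECT2 at 27.7 ± 3.34 RPKM and CDC20 at 25.7 ± 6.12 RPKM. Among the lowest were KIF20B at 4.58 ± 0.618 RPKM and the spindle pole protein gene ASPM at 3 ± 0.673 RPKM, and the ASPM level still lay above that of 53.9% of the genes tested.

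NUSAP1 and PRC1, which encode microtubule-bundling proteins of the spindle, stood far below the rest, at 0.143 ± 0.0333 and 0.155 ± 0.0423 RPKM. Of their exon bases, 86.8% and 61.9% lie within exons of another annotated gene, and reads overlapping several genes were not counted. NUSAP1 shares its exons with ENSG00000285920, OIP5 and OIP5-AS1, and PRC1 with ENSG00000284946 and PRC1-AS1. Only 16 to 30 reads per library were left for NUSAP1 and 25 to 51 for PRC1, and how far the shared bases lower these values was not tested. The other 34 genes had 526 to 10413 reads per library. For them the overlap was at most 12.8% of exon bases, in PLK1.

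**Figure D1:**
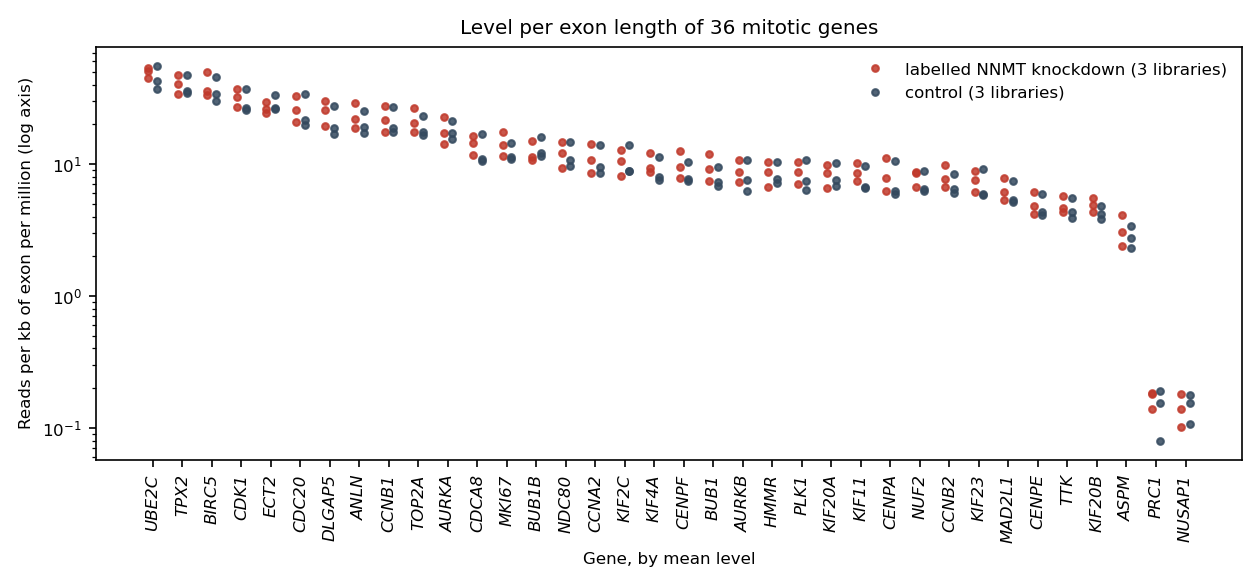
Level per exon length of the 36 mitotic genes (vertical log axis, RPKM), ordered by mean over 6 libraries, with each point 1 library. UBE2C leads at a mean of 47.4 and the groups overlap for every gene, while PRC1 and NUSAP1, which share 61.9% and 86.8% of their exon bases with other genes, lie lowest at 0.155 and 0.143.

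The main feature of these genes was that they moved up and down together from library to library, and not with the group labels. Each was expressed as log2 CPM minus its own mean over the 6 libraries. The median over the 36 genes was 0.0519, 0.348 and -0.208 in replicates 1, 2 and 3 labelled NNMT knockdown, against 0.282, -0.214 and -0.255 in control replicates 1, 2 and 3. Knockdown-labelled replicate 2 and control replicate 1 were high, knockdown-labelled replicate 1 was in between, and the other 3 libraries were low. The medians spanned 0.602 on the log2 scale, or 1.52-fold, against 0.00953 over all genes tested, which the scaling holds near 0. For 33 of the 36 genes knockdown-labelled replicate 2 and control replicate 1 were the 2 highest libraries, against 12.1% of 20094 genes with reads in every library. The exceptions were NUF2, KIF20B and PRC1.

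Within the knockdown-labelled group, 36 of 36 genes were higher in replicate 2 than in replicate 3, with a median ratio of 1.48 and a range from 1.2 for UBE2C to 1.81 for CENPA. Within the control group, 36 of 36 were higher in replicate 1 than in replicate 3, with a median ratio of 1.42. Over all genes tested both ratios had a median of 0.998, and 49.7% of genes were higher in each case. Control replicates 2 and 3 were close to each other, with 22 of 36 genes higher in replicate 2 and a median ratio of 1.04. No gene had its highest value in replicate 1 or 3 labelled knockdown or in control replicate 3. The lowest value was in knockdown-labelled replicate 3 for 10 genes, in control replicate 2 for 13 and in control replicate 3 for 13. As these are bulk samples, fewer cells in mitosis and less RNA per cell cannot be told apart. Library totals were 40558680, 45405621 and 43455163 reads in replicates 1, 2 and 3 labelled knockdown and 41591436, 48215685 and 56067484 in control replicates 1, 2 and 3. The share of mitochondrial reads was 4.25%, 3.9% and 4.82% in replicates 1, 2 and 3 labelled knockdown and 4.35%, 4.64% and 4.58% in control replicates 1, 2 and 3. Control replicates 2 and 3, which were low in these genes, had the highest totals, and the mitochondrial share was lowest in knockdown-labelled replicate 2. The part of either in the pattern was not tested.

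**Figure D2:**
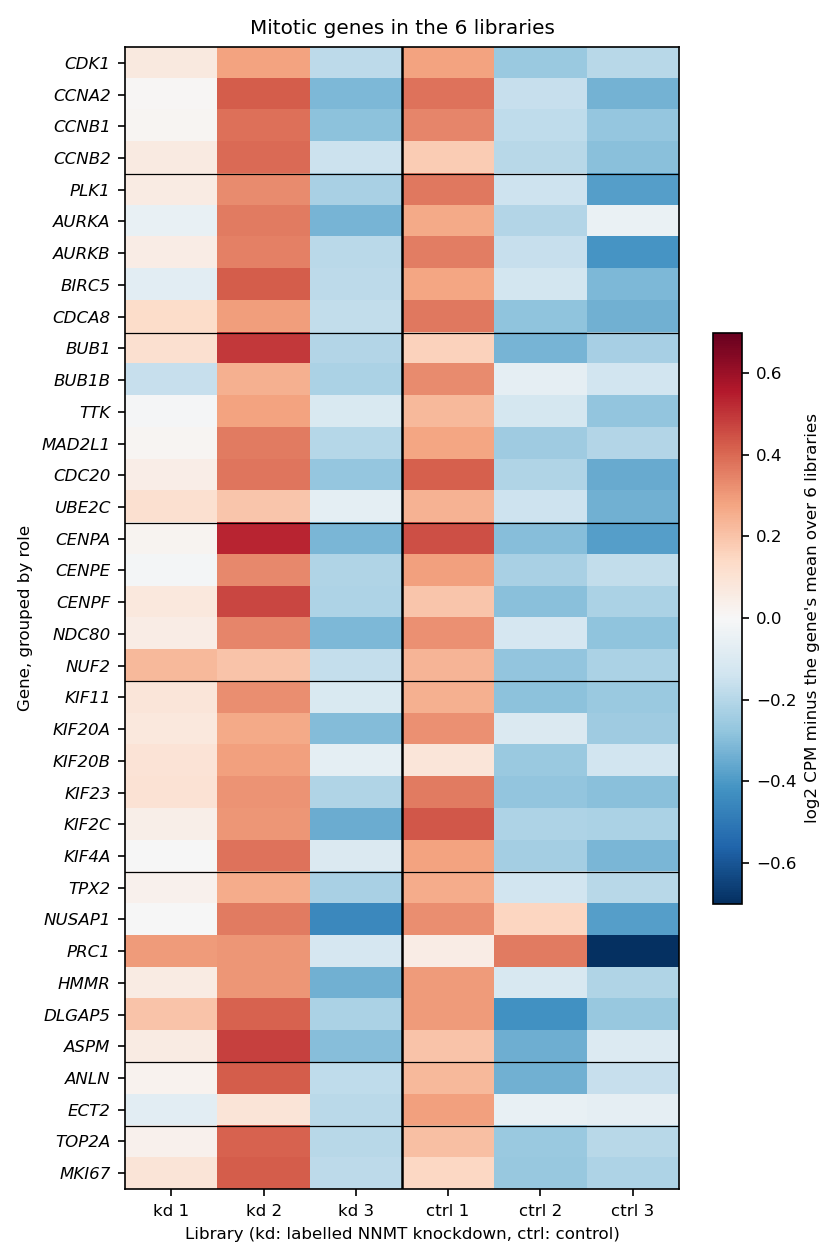
Heat map of the 36 genes (rows, grouped by role) in the 6 libraries (columns, knockdown-labelled on the left of the line and control on the right), coloured by log2 CPM minus the gene's mean over libraries. The columns of knockdown-labelled replicate 2 and control replicate 1 are red, with medians of 0.348 and 0.282, and those of knockdown-labelled replicate 3 and control replicates 2 and 3 are mostly blue.

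The shared movement held most of the variation of these genes. Their mean profile over libraries carried 83.8% of the sum of squares of the centred log2 values, and 89.6% without NUSAP1 and PRC1. The SD within groups had a median of 0.298 on the log2 scale over the 36 genes, against 0.124 over the 10030 genes tested at 10 CPM or more, of which 94.2% lay below 0.298. Setting each gene against the median of the other 35 in the same library brought the median SD within groups to 0.0803, and it was smaller for 36 of 36 genes. PRC1 kept the highest SD on this relative scale, 0.455, and MAD2L1 the lowest, 0.0389.

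CDK1 and its cyclins followed the pattern closely, and their mean profile carried 95.7% of their sum of squares. CDK1 measured 125, 145 and 105 CPM in replicates 1, 2 and 3 labelled NNMT knockdown, against 145, 99.6 and 104 CPM in control replicates 1, 2 and 3. CCNB1, the cyclin B that carries CDK1 into mitosis, measured 52.1, 67.4 and 42.4 CPM in the labelled libraries, against 65.5, 45.7 and 42.8 CPM in control. Both genes had a nearly equal high value in knockdown-labelled replicate 2 and control replicate 1, so the groups overlapped. CCNA2, whose cyclin A also serves S phase, spanned 1.69-fold between its highest and lowest library, and CCNB2 spanned 1.61-fold. The fitted log2 fold changes, labelled knockdown over control, were 0.11 (SE 0.166) for CDK1, 0.07 (SE 0.215) for CCNB1, 0.08 (SE 0.239) for CCNA2 and 0.21 (SE 0.163) for CCNB2, and the quasi-likelihood test of edgeR gave all 4 an adjusted p of 0.999.

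The Polo and Aurora kinases and the chromosomal passenger complex spanned 1.62-fold in their library medians. PLK1, the Polo-like kinase of centrosomes and kinetochores, measured 41.1, 49.7 and 33.8 CPM in replicates 1, 2 and 3 labelled knockdown, against 50.9, 35.7 and 30.2 CPM in control replicates 1, 2 and 3. AURKA, the spindle pole kinase, measured 50.2, 67 and 41.5 CPM, against 62.4, 45.1 and 50.3 CPM in control, and its group means were nearly equal at 52.9 ± 12.9 and 52.6 ± 8.87 CPM (SD, n = 3 each). AURKB, the kinase of the passenger complex, ranged from 16.5 to 24 CPM in the labelled libraries and from 14.1 to 24.1 CPM in control. Its partners BIRC5 and CDCA8, which encodes borealin, averaged 151 ± 35.2 and 34 ± 5.45 CPM in the labelled libraries, against 139 ± 29.9 and 30.8 ± 8.82 CPM in control (SD, n = 3 each). The log2 fold changes of these 5 genes lay between 0.01 for AURKA and 0.14 for CDCA8.

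Of the spindle checkpoint and anaphase-promoting complex genes, BUB1 had the highest fold change of all 36 genes and BUB1B was among the 4 below 0. BUB1, the kinase that recruits checkpoint proteins to kinetochores, measured 58.2, 75.7 and 46.7 CPM in replicates 1, 2 and 3 labelled knockdown, against 60.1, 42.9 and 45.8 CPM in control replicates 1, 2 and 3 (log2 fold change 0.28, SE 0.194, adjusted p = 0.999 by the quasi-likelihood test of edgeR). Its high labelled mean rested on replicate 2, and without that library the fold change was 0.08. Over the 6 fits that leave out 1 library, the log2 fold change of BUB1 ran from 0.0754 to 0.439. BUB1B, which encodes the checkpoint inhibitor BUBR1, measured 50.5, 67.1 and 48.4 CPM, against 71.1, 54.1 and 51.4 CPM in control (log2 fold change -0.09, SE 0.159). The checkpoint kinase gene TTK and MAD2L1, whose protein MAD2 binds CDC20, spanned 1.47-fold and 1.52-fold over the libraries. CDC20, the activator that the checkpoint holds back, spanned 1.71-fold, and its values of 52.2, 65.7 and 41.9 CPM in replicates 1, 2 and 3 labelled knockdown lay within the range of the control values, 67.7, 43.7 and 39.6 CPM. UBE2C had the smallest ratio of knockdown-labelled replicate 2 to replicate 3, at 1.2.

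The library medians of the centromere and kinetochore genes spanned 1.54-fold. CENPA, the histone H3 variant that marks centromeres, measured 15.3, 21.9 and 12.1 CPM in replicates 1, 2 and 3 labelled knockdown, against 20.7, 12.3 and 11.6 CPM in control replicates 1, 2 and 3. Its SD within groups, 0.447 on the log2 scale, was the highest of the 34 genes with few shared exon bases, and its highest library was 1.89 times its lowest. CENPF, a large kinetochore and nuclear matrix protein gene, measured 119, 156 and 97.1 CPM, against 129, 92.1 and 96.8 CPM in control. The kinesin-like motor gene CENPE and the NDC80 complex genes NDC80 and NUF2, which bind microtubule ends, spanned 1.48-fold, 1.58-fold and 1.43-fold. NUF2 was an exception to the order of libraries: replicates 1 and 2 labelled knockdown had 29.5 and 29 CPM and control replicate 1 had 29.7 CPM. The log2 fold changes of these 5 genes ran from 0.06 for NDC80 to 0.23 for CENPF, and their groups overlapped.

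The 6 kinesin genes had library medians that spanned 1.48-fold. KIF11, the motor that pushes spindle poles apart, measured 45.5, 53.9 and 39.9 CPM in replicates 1, 2 and 3 labelled knockdown, against 51, 35.2 and 35.9 CPM in control replicates 1, 2 and 3. KIF2C, the microtubule depolymerase of the centromere, measured 38.8, 46.8 and 29.6 CPM, against 50.9, 32.5 and 32.4 CPM in control, and its log2 fold change was -0.004 (SE 0.228). KIF20B, a motor of late cytokinesis, had the lowest unadjusted p of the 36 genes, 0.115 (log2 fold change 0.21, SE 0.121, adjusted p = 0.999 by the quasi-likelihood test of edgeR). It was also the only one of the 36 whose fold change exceeded its SD within groups, 0.175 on the log2 scale. Its values of 33.4, 38.1 and 29.8 CPM in the labelled libraries overlapped those of 33.1, 26.1 and 28.5 CPM in control. KIF20A and KIF23, motors of the central spindle, and the chromokinesin gene KIF4A spanned 1.54-fold, 1.57-fold and 1.62-fold.

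Among the spindle microtubule-associated proteins, DLGAP5, a kinetochore fibre protein gene, measured 93, 108 and 69.4 CPM in replicates 1, 2 and 3 labelled knockdown, against 99.6, 60.3 and 67.4 CPM in control replicates 1, 2 and 3. Its log2 fold change was 0.25 (SE 0.236). TPX2, which activates AURKA on the spindle, and HMMR, a spindle-assembly and hyaluronan-binding protein gene, had fold changes near 0, at 0.05 (SE 0.151) and 0.03 (SE 0.183). ASPM measured 36.7, 49.2 and 28.7 CPM in the labelled libraries, against 40.5, 27.8 and 33 CPM in control. The few reads of PRC1 gave 0.439 CPM in control replicate 3 and 1.06 CPM in control replicate 2, a 2.41-fold range.

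ECT2, the exchange factor that activates RhoA for cytokinesis, was the steadiest of the 36 genes. It measured 144, 161 and 133 CPM in replicates 1, 2 and 3 labelled knockdown, against 185, 146 and 145 CPM in control replicates 1, 2 and 3, with the lowest SD within groups, 0.173 on the log2 scale. Its log2 fold change of -0.12 (SE 0.114) was the lowest of the list, and its adjusted p by the quasi-likelihood test of edgeR was 0.999. ANLN, which encodes the contractile ring scaffold anillin, varied more, with 131, 173 and 114 CPM in the labelled libraries, against 151, 102 and 115 CPM in control. On the chromosomes, MKI67, which encodes the proliferation antigen Ki-67, measured 179, 226 and 148 CPM in the labelled libraries, against 186, 140.0 and 145 CPM in control. TOP2A, the topoisomerase that untangles sister chromatids, measured 130.0, 169 and 111 CPM, against 147, 106 and 111 CPM in control.

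Between the groups, none of these genes passed the test. At a Benjamini-Hochberg adjusted p under 0.05 by the quasi-likelihood test of edgeR, 0 of the 36 rose and 0 fell, against 0.0% of 20250 genes in either direction, and the smallest adjusted p among the 36 was 0.999. At an unadjusted p under 0.05 there were 0 of 36, against 4.03% of all genes, and DESeq2 called 0 of 36 while calling 0.0395% of all genes. The groups did not overlap for 0 of 36 genes, against 9.2% of all genes. The fold change lay above 0 for 32 of 36, against 50.8% of all genes, with a median log2 fold change of 0.119, against 0.00333. The 4 below 0 were BUB1B, KIF2C, NUSAP1 and ECT2. Since the genes move together, the 32 are not separate observations, and for 35 of 36 the fold change was smaller than the SD within groups. That SD is the spread of single libraries and not the SE of the fold change, and the share over all genes was not computed. The 95% interval of the fold lay within 2-fold in 35 of 36 genes, PRC1 excepted, and within 1.5-fold in 20, so smaller changes could not be resolved with 3 libraries a group.

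**Figure D3:**
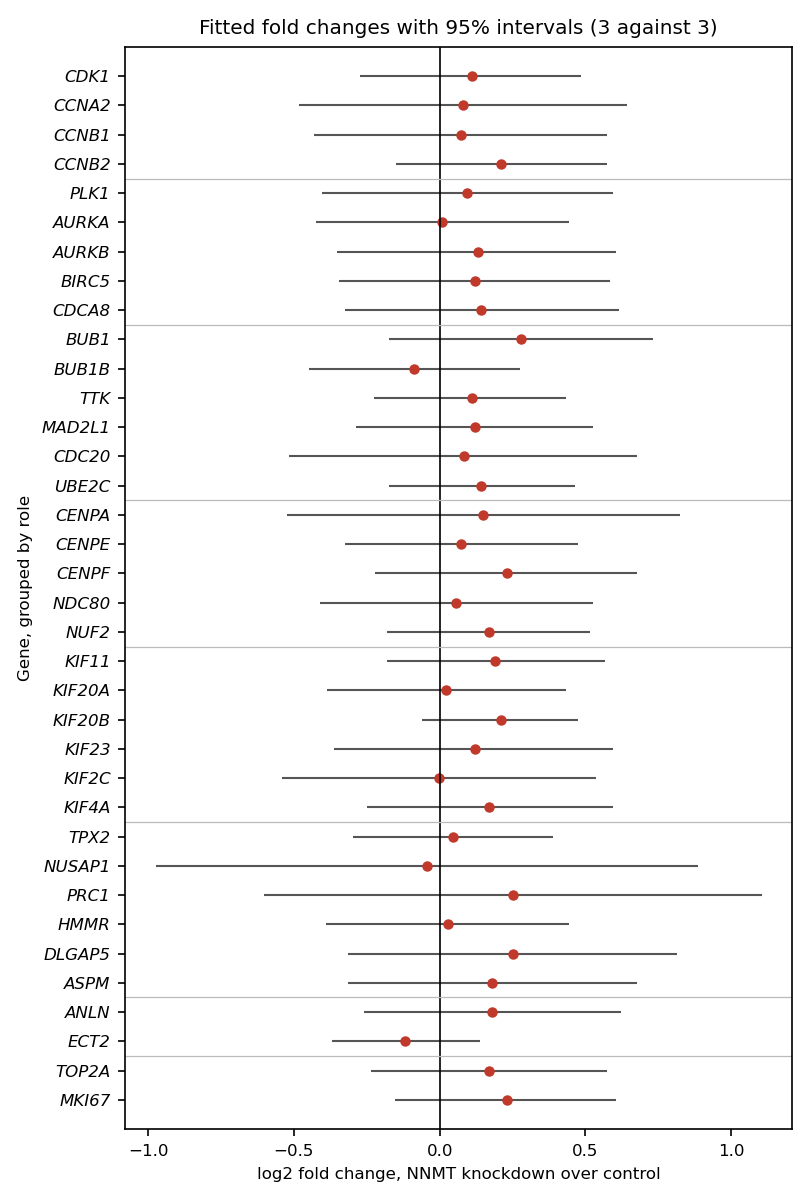
Fitted log2 fold change of each gene, labelled NNMT knockdown over control (horizontal axis), with 95% intervals from edgeR's quasi-likelihood fit, genes grouped by role. Points run from -0.12 for ECT2 to 0.28 for BUB1 and every interval crosses 0.

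The median fold change depended on which libraries were in the fit. Without knockdown-labelled replicate 2 it was -0.0413 with 12 of 36 genes above 0, against 48.8% of all genes, and without control replicate 3 it was 0.00131 with 18 of 36 above 0, against 51.5% of all genes. Without control replicate 1 it was 0.318 with 36 of 36 above 0, against 49.9% of all genes, and without knockdown-labelled replicate 3 it was 0.238 with 34 of 36, against 50.2%. In the fit without control replicate 1, 10 of 36 genes were higher at an unadjusted p under 0.05, against 2.86% of all genes, and the smallest adjusted p among the 36 was 0.878. Leaving out knockdown-labelled replicate 3 gave 3 of 36, against 2.78% of all genes. Control replicate 1 was the control library in which these genes were high, and knockdown-labelled replicate 3 was low in them. Since the genes move together, those counted are not separate observations. Leaving out control replicate 2 gave a median of 0.0374 with 26 of 36 above 0, against 50.1% of all genes, and leaving out knockdown-labelled replicate 1 gave 0.127 with 31 of 36, against 49.8%. The adjusted test of edgeR called 0 of 36 in each of these 6 fits, and over all genes it called 1, ADCY1, or 0.00482%, in the fit without control replicate 3. With no filter on low counts it called 0 of 36, against 0.19% of all genes. There 3 of 36 were higher at an unadjusted p under 0.05, against 2.4%, and the smallest adjusted p among the 36 was 0.614, for BUB1. Under the other scaling, with halved counts, with DESeq2 and with no filter, 32 of 36 stayed above 0, against 50.5% to 51.0% of all genes (50.6% with halved counts).

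**Figure D4:**
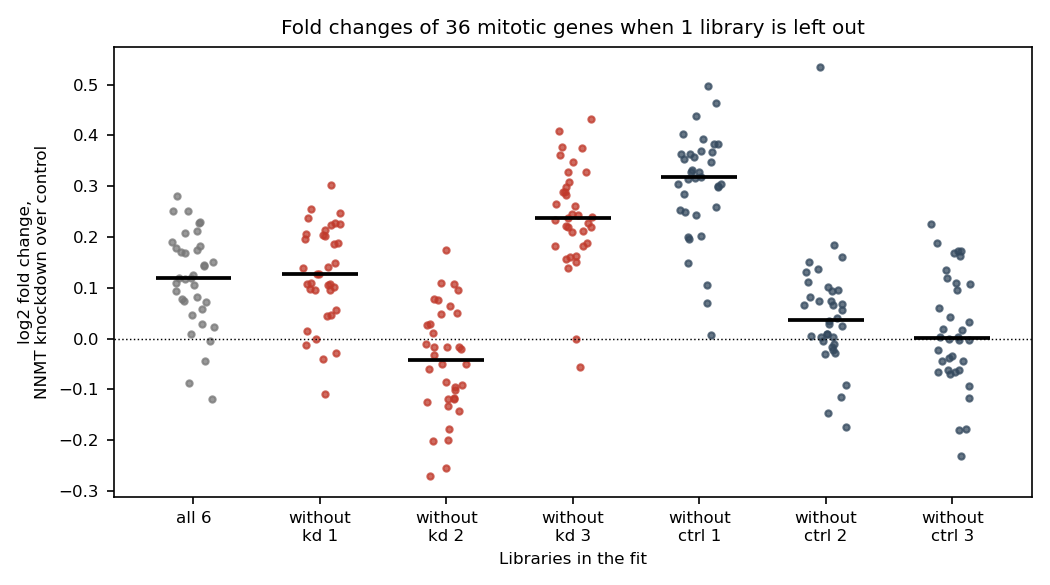
Log2 fold changes of the 36 genes, labelled NNMT knockdown over control (vertical axis), in the fit of all 6 libraries and in the 6 fits that leave out 1 library, with each point a gene and each bar their median. The median is -0.0413 without knockdown-labelled replicate 2 and 0.318 without control replicate 1.

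The transcription factor genes known to drive G2 and M genes also differed between replicates. FOXM1 measured 66.6, 82 and 52.1 CPM in replicates 1, 2 and 3 labelled knockdown, against 79.6, 57.6 and 49.1 CPM in control replicates 1, 2 and 3, with a log2 fold change of 0.11 (SE 0.222). MYBL2, which encodes B-MYB, measured 72.6, 85.4 and 58.3 CPM, against 82.8, 53.3 and 52.6 CPM in control. Both were highest in knockdown-labelled replicate 2 and control replicate 1. LIN9, a core subunit of the DREAM and B-MYB complexes, varied less, from 19.3 to 25.7 CPM in the labelled libraries and 19.9 to 24 CPM in control. The CDK inhibitor gene CDKN1A, which encodes p21, ran the other way, with 41, 26.8 and 36.1 CPM in the labelled libraries, against 27.2, 43.6 and 37.8 CPM in control. Its lowest values were in knockdown-labelled replicate 2 and control replicate 1. The inhibitor gene CDKN2B, which encodes p15, was also lowest in knockdown-labelled replicate 2, with 222, 182 and 274 CPM, against 227, 295 and 290.0 CPM in control. CDKN2C, which encodes the inhibitor p18, was instead highest in knockdown-labelled replicate 2 and control replicate 1, with 58.1, 62.2 and 50.9 CPM in the labelled libraries, against 59.8, 48.6 and 47.7 CPM in control. WEE1, the kinase that restrains CDK1, and CCND1, or cyclin D1, spanned 1.23-fold and 1.25-fold over the libraries. By the quasi-likelihood test of edgeR the adjusted p was 0.999 for all 8 of these genes.

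Of 8 other cell cycle lists, 6 also had their highest medians in knockdown-labelled replicate 2 and control replicate 1, and the span was smaller in all 8. The exceptions were the anaphase-promoting complex and the G1 genes. Their library medians are centred log2 CPM, as above. The 14 genes of CDK1 control and other mitotic kinases had 0.00945, 0.349 and -0.202 in replicates 1, 2 and 3 labelled knockdown, against 0.261, -0.121 and -0.189 in control replicates 1, 2 and 3, a span of 0.551. The 54 DNA replication and S phase genes had -0.000133, 0.263 and -0.141, against 0.167, -0.134 and -0.157 in control, a span of 0.421. Other mitotic kinesin, spindle and cytokinesis genes (30 tested) spanned 0.406 and other kinetochore and centromere genes (38 of 39 tested) spanned 0.38. Condensin, cohesin and separase genes (23) spanned 0.29 and the DREAM, B-MYB, FOXM1 and E2F factors (20) spanned 0.243. The anaphase-promoting complex genes (17) spanned 0.125, and the CDK inhibitors, G1 cyclins and G1 CDKs (14 of 15 tested) spanned 0.164. The mean profile of this G1 list held 3.26% of its sum of squares. Genes that move in opposite ways, as CDKN1A and CDKN2C did, cancel in such a mean, so shared movement within the list was not measured. The median SD within groups was 0.331 on the log2 scale for CDK1 control and other mitotic kinases, above the 0.298 of the 36 mitotic genes. In the remaining lists it was 0.126 to 0.224. No test compared these spans or SDs with those of the 36 mitotic genes.

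**Figure D5:**
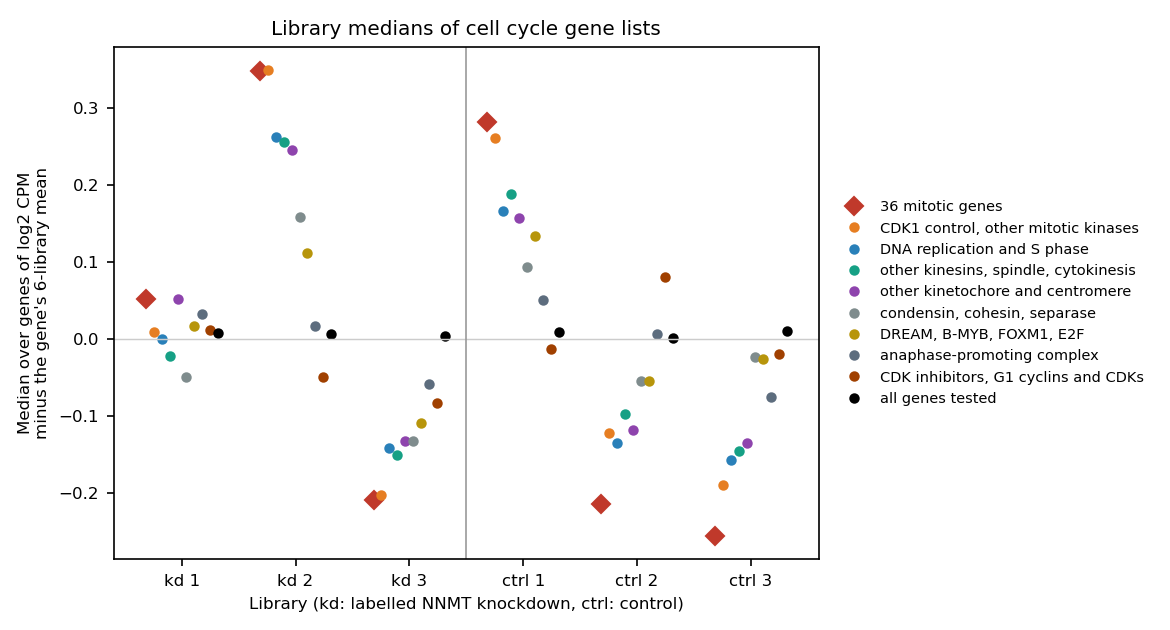
Median over the genes of each list of log2 CPM minus the gene's mean over libraries (vertical axis), in the 3 knockdown-labelled libraries on the left and the 3 control libraries on the right. The 36 mitotic genes (diamonds) reach 0.348 in knockdown-labelled replicate 2 and -0.255 in control replicate 3, and all genes tested lie near 0, where the scaling holds them.

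By the same adjusted test of edgeR 0 genes of these lists passed in either direction, against 0.0% of all genes. At an unadjusted p under 0.05 there was 1 of 38 in the other kinetochore list, SPC24, against 4.03% of all genes. There were 0 of 54 in the replication list, 0 of 30 in the spindle list, 0 of 23 in the condensin list and 0 of 20 in the DREAM list. The anaphase-promoting complex had 0 of 17, and the CDK1 control and G1 lists had 0 of 14 each. The lists thus held a lower share than all genes. Over all genes tested, 50.8% lay above 0 and the median was 0.00333 on the log2 scale. The median log2 fold change was 0.0841 for the other kinetochore genes, with 29 of 38 above 0, and 0.0598 for the other kinesin, spindle and cytokinesis genes, with 21 of 30. It was 0.0489 for replication, with 41 of 54 above 0, and 0.0548 for CDK1 control, with 8 of 14. It was 0.0349 for the anaphase-promoting complex, with 10 of 17, 0.0112 for the DREAM and E2F list, with 10 of 20, -0.0167 for the G1 list, with 6 of 14, and -0.031 for condensin and cohesin, with 10 of 23. SPC24, a subunit of the NDC80 complex, measured 21.6, 28.7 and 18.8 CPM in replicates 1, 2 and 3 labelled knockdown, against 21, 14.9 and 15.5 CPM in control replicates 1, 2 and 3 (log2 fold change 0.43, SE 0.182, adjusted p = 0.999 by the quasi-likelihood test of edgeR). Its groups overlapped.

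The other genes with the lowest p in each list had these log2 fold changes. In the kinetochore list CENPI had 0.24 and CENPW 0.31, and in the spindle list the augmin gene HAUS2 had -0.23, PSRC1 0.21 and the kinesin gene KIFC1 0.19. Among condensin genes SMC4 had -0.17, NCAPG2 0.17 and SMC2 0.11. Of the anaphase-promoting complex ANAPC11 had 0.19, CDC27 -0.13 and ANAPC7 -0.09. The CDK-binding genes CKS1B and CKS2 both had 0.19 and ARPP19, which encodes a phosphatase inhibitor, had -0.10. In the DREAM and E2F list LIN52 had 0.21, the pocket protein genes RBL1 and RB1 had 0.19 and 0.09. In the G1 list CDK2 had -0.17, CDKN2B -0.26 and CDKN2C 0.13, and among replication genes TYMS had 0.18, RRM1 0.20 and RFC5 -0.13.

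To set the common level aside, each gene was centred on its own mean over libraries. It was then set against the median of the other 35 genes in the same library. The mean difference between groups, labelled knockdown minus control, then ran from -0.242 for ECT2 to 0.2 for PRC1 on the log2 scale. It was -0.22 for BUB1B and 0.142 for BUB1, with SDs within groups of 0.0792 and 0.0791. On this relative scale 3 of 36 genes, BUB1B, KIF2C and HMMR, had groups that did not overlap. For all genes the share was 9.2%, but for the values as measured, so the shares are not on the same scale. The nearest values of the groups were 0.01 in both for HMMR. For KIF2C they were -0.01 in knockdown-labelled replicate 1 and -0.0 in control replicate 2. BUB1B lay at -0.21, -0.1 and -0.02 in replicates 1, 2 and 3 labelled knockdown, against 0.05, 0.15 and 0.12 in control replicates 1, 2 and 3, on the log2 scale. ECT2 lay at -0.12, -0.26 and 0.02, against 0.01, 0.16 and 0.19 in control, and its groups overlapped. On this centred scale CDK1 stayed within 0.06 of the median of the other genes in every library. These relative values were computed after the common pattern had been seen, and they carry no test.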

How the data were processed

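The authors deposited raw read counts per gene, made per the file headers with featureCounts 2.0.6 from hg38 alignments and GENCODE 44 gene models. Both mates had to align, chimeric pairs were dropped, and reads that mapped to several places or overlapped several genes were not counted, per the file headers. Mates were counted singly and no strand option was set, per the file headers, although the labels' protocols name a stranded kit, so reads of antisense partners cannot be told apart. No aligner is named in the labels or headers. Poly(A) libraries were sequenced in pairs of 150 bases, per the labels' protocols.

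All 62700 identifiers matched a symbol. Genes were filtered with filterByExpr (20250 kept), scaled by TMM and tested with edgeR 4.0.16 (R 4.3.3, quasi-likelihood, robust, group as the sole term, Benjamini-Hochberg over all genes tested, threshold 0.05). Each standard error is the size of the fold change over the square root of F. NNMT, which did not pass the filter, was added for its own value. The biological coefficient of variation was 18.3%. The test was checked on simulated data in which each gene was drawn independently, so the check did not cover genes that move together. DESeq2 1.42.0 was an alternative. The smallest p that an exact permutation test of 3 against 3 allows is 0.1, so none was run. Every pair of libraries differed by more than sampling noise, with a chi-square per gene of 12 to 44 over 15 pairs. Pairs within a group had 22.8 to 36.3 and pairs between groups 12 to 44. The lowest was between knockdown-labelled replicate 3 and control replicate 3. Intervals cover the spread between these cultures. A count of 0 allows up to 3 reads and covers counting error only.

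The members, the lists and the tests were chosen with earlier results of these data known. Named genes are NNMT, the 36 members, 6 regulators and up to 3 genes with the lowest p of each list. Promoter windows came from RefSeq.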

Additional observations from a re-analysis of the deposited data

How the results depend on the processing

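Under other scaling (RLE factors), no filter on low counts, DESeq2, counts halved because mates were counted singly, non-robust dispersion and the replicate number as a block, 0 of the 36 mitotic genes passed the adjusted threshold, 32 of 36 lay above 0, and their median log2 fold change was 0.117 to 0.126. Over all genes the count called was 72 without the filter, 8 with DESeq2 and 0 to 1 when a library was left out, against 0 in the test reported. Leaving out 1 library moved the median to between -0.0413 and 0.318, the genes above 0 to between 12 and 36, and the members called stayed at 0. The cause was not tested. Same-numbered libraries did not all deviate together (correlations of deviations 0.055, -0.0869 and 0.2 for replicates 1, 2 and 3), so the numbers were not taken as pairs. With the replicate block the log2 fold changes of AURKA and KIF2C changed sign, to -0.00722 and 0.00294, and the count called over all genes was 0. Most named genes outside the list of 36 were picked for a low p, which makes a change of sign less likely. Mitotic and other named genes are thus not comparable in this, and no share over all genes was computed. Of the 66 named genes, 29 changed sign when some library was left out, 25 of them mitotic genes. The ranges of their log2 fold changes over the 6 fits were CDK1 -0.0168 to 0.299, CCNA2 -0.142 to 0.315, CCNB1 -0.124 to 0.285, PLK1 -0.0609 to 0.333, AURKA -0.201 to 0.156, AURKB -0.0342 to 0.369, BIRC5 -0.0908 to 0.301, BUB1B -0.254 to 0.0695, TTK -0.0196 to 0.26, MAD2L1 -0.0506 to 0.304, CDC20 -0.102 to 0.353, CENPA -0.118 to 0.463, CENPE -0.0948 to 0.253, NDC80 -0.119 to 0.249, KIF20A -0.116 to 0.203, KIF23 -0.0174 to 0.364, KIF2C -0.177 to 0.244, TPX2 -0.0857 to 0.201, NUSAP1 -0.271 to 0.139, PRC1 -0.0447 to 0.534, HMMR -0.133 to 0.197, ASPM -0.0507 to 0.348, ANLN -0.0104 to 0.357, ECT2 -0.199 to 0.00673, TOP2A -0.0166 to 0.328, and for other genes FOXM1 -0.0691 to 0.326, LIN9 -0.165 to 0.0552, CDKN1A -0.234 to 0.089, WEE1 -0.00869 to 0.133. Depth limits NUSAP1 and PRC1, with 16 to 30 and 25 to 51 reads a library.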

Other observations

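Genes outside the list whose RefSeq promoter windows held a CHR and at least 2 CCAAT boxes were looked at after the mitotic genes had been described. There were 190 such tested genes with reads in every library, from which genes of the other cell cycle lists were not removed. Their median log2 CPM, minus each gene's mean over libraries, was 0.0201, 0.0501 and -0.0517 in replicates 1, 2 and 3 labelled NNMT knockdown, against 0.0637, -0.0307 and -0.0252 in control replicates 1, 2 and 3. The 7183 genes with neither motif had medians between -0.00122 and 0.0106, near 0, where the scaling holds the bulk of genes. Within the list of 36, the 21 genes with both motifs spanned 0.624 over the libraries and the 10 genes with a window but not both motifs spanned 0.594.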
